A study of Mus musculus with 18 samples.

Results

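Regulatory T cells (Tregs) sorted from skin wounds were set against Tregs from spleen, taken by their sample labels: 3 skin libraries and 6 spleen libraries, 9 of the 18 libraries of the series. All groups came from male mice aged 10 weeks that carried the Foxp3(DTR/GFP) allele, which puts a diphtheria toxin receptor and a fluorescent reporter under the Foxp3 gene, so that this allele was shared by every library. Skin Tregs were collected on day 7 after a full-thickness biopsy punch, and each skin replicate was pooled from 3 mice. Spleen Tregs came from uninjured mice, and pooling is not stated for them. The series held neither uninjured skin nor spleen of wounded mice, so the effect of the injury and that of the tissue cannot be told apart. Tregs of injured bone, muscle and heart, 3 libraries each on the same day, served for a second comparison. The measurement was bulk RNA sequencing of 1 ng of RNA, deposited as read counts per gene.

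Tregs are CD4 T cells held in their fate by the transcription factor Foxp3, and they restrain other immune cells through inhibitory receptors, cytokines and consumption of interleukin 2. In lymphoid organs many of them recirculate and keep features of resting T cells, held by factors such as Tcf7 and Bach2. In skin and other barrier tissues Tregs carry an activated programme with receptors for chemokines and alarmins, the cytokines set free by damaged tissue, and are known to aid wound closure and hair follicle renewal.

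Depth was 8375212 to 11907745 counts in skin and 5970346 to 15756884 in spleen, over 46078 genes. The spleen libraries fell into 2 sets by the style of their column names. All skin libraries carried the Endo style, with 0.169% to 0.472% of counts from ribosomal RNA. Spleen 1 to 3 carried it too, with 0.834% to 3.163%, while spleen 4 to 6 carried the Tregs style, with 0.012% to 0.069%. The naming style entered the model, so each fold change against spleen rests on spleen 1 to 3, with the spread taken over 15 libraries. Levels are library-size-scaled counts (CPM) after TMM scaling over 18 libraries, not per length, and not adjusted for style. In bulk samples, fewer cells of a type and less RNA per cell cannot be told apart.

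The labelled cell type matched its markers. Foxp3 (chromosome X), the defining Treg factor, was at 837, 814 and 718 CPM in the 3 skin libraries, against 344, 409 and 444 CPM as the lowest, median and highest of the spleen libraries, the form in which 3 spleen values are given below. It was higher in every skin library than in any spleen library, at 1.92-fold with a log2 fold change of 0.94 ± 0.14 (SE; adjusted p = 1.6e-05, edgeR quasi-likelihood test with Benjamini-Hochberg adjustment). Cd4, the co-receptor of helper T cells and Tregs, was at 557 to 579.7 CPM in skin and 454 to 701 CPM in spleen, and did not pass the test (adjusted p = 0.39). Among markers of other cells, neutrophil genes summed to 0 to 0.452 CPM in skin and 2.75 to 29.4 CPM in spleen. Macrophage genes summed to 5.73 to 22.1 CPM in skin and 27.0 to 54.1 CPM in spleen, with 2 of 9 tested lower and none higher. Of the macrophage genes with too few counts to test, Fcgr1 had 17 counts in skin and 0 in spleen, and Arg1 11 and 0. C1qa had 3 and 36 counts, and Ms4a7 2 and 8. B cell genes, of which 8 of 10 tested were lower in skin, summed to 438 to 530 CPM in skin and 541 to 997 CPM in spleen, most of it from Ighm. Keratinocyte genes summed to 33.4 to 39.7 CPM in skin and 19.9 to 30.9 CPM in spleen. Much of both sums came from Sfn, which did not pass, at 19.4 to 25.5 CPM in skin and 15.7 to 27.7 CPM in spleen. Of 4 keratinocyte genes tested, 1 passed, Perp, 8.96-fold higher at 4.74 to 6.76 CPM in skin and 0.281 to 1.55 CPM in spleen. Krt5 was at 0.185 to 4.29 CPM and Krt14 at 0.79 to 3.06 CPM in skin, and both were at 0 in spleen. Trp63 had 26 counts in skin and 0 in spleen, and Krt1 had 0 and 9. Fibroblast genes summed to 122 CPM in skin 3, 13.1 and 13.7 CPM in the other skin libraries and 1.21 to 17.6 CPM in spleen. The spleen median was 2.4 CPM. Col1a1 was above every spleen library in all skin libraries, at 9.05, 5.76 and 38.3 CPM against 0 to 3.8 CPM. So was Dcn, at 0.831, 1.13 and 3.57 CPM against 0 to 0.253 CPM. The other markers of the list overlapped spleen, and none of the 8 tested passed.

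Expression differed over a large share of the measured genes. Of 15617 genes tested, 4342 (27.8%) passed an adjusted p of 0.05, 2347 of them higher in skin (15%) and 1995 lower (12.8%). Beyond 4-fold there were 695 higher and 483 lower genes, and beyond 16-fold 163 and 158. The 3 skin and 6 spleen libraries did not overlap for 33.9% of the genes tested, and counts of non-overlapping genes are read against that share. With spleen 1 and 2 left out, so that spleen 3 alone of the spleen libraries carried the Endo style, 1500 genes were higher and 1048 lower. With the naming style also dropped, in skin and spleen libraries only, 2956 were higher and 2819 lower.

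Among the genes furthest above spleen were a secreted mucosal peptide, a cytokine receptor and a prohormone protease. Tff1 (chr17:31161395-31165277, minus strand, GRCm38) encodes a trefoil peptide that protects and repairs mucosal lining in the stomach. It was at 57.3, 49.9 and 39.9 CPM in the skin libraries, against 0, 0 and 0.173 CPM in spleen. These were 1376 counts in skin and 2 in spleen, a ratio of 1610 with a 95% counting interval of 444 to 13300. Every skin library was far above every spleen library. Pcsk1, a protease that matures prohormones, was at 128, 119 and 98.9 CPM in skin and 0.067, 0.314 and 0.993 CPM in spleen, with a log2 fold change of 7.30 ± 0.58 (SE; adjusted p = 4.3e-07). Il23r (chr6:67422932-67491855, minus strand), which encodes the receptor subunit specific to interleukin 23, was at 41.6, 46.8 and 49.8 CPM in skin and 0, 0.339 and 1.26 CPM in spleen, with a log2 fold change of 6.01 ± 0.53 (SE; adjusted p = 1.2e-08). In both genes the groups were wide apart, with all spleen values near 0.

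The other genes of this end were Irg1, the enzyme that makes itaconate, at log2 6.63, and Frmd5, a FERM-domain protein, at log2 6.18. Mreg, which acts in melanosome and lysosome transport, had a log2 fold change of 6.01, Msrb3, a methionine sulfoxide reductase, one of 6.00, and Col18a1, a basement membrane collagen, one of 5.93. Cxcl2, a chemokine that draws neutrophils, had 5.80, Adgrl2, an adhesion G protein-coupled receptor, 5.77, and the inhibitory receptor gene Havcr2 and the growth factor gene Areg had 6.01 and 5.93. Each of these genes kept its call in every alternative analysis.

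Genes furthest below spleen were led by Igfbp4, which binds insulin-like growth factors and marks resting T cells, at 0.0923, 0.226 and 1.02 CPM in skin and 39.8, 50.2 and 90.6 CPM in spleen (log2 fold change -7.45 ± 0.55, adjusted p = 8.7e-09). Gucy1a3, a subunit of the nitric oxide sensor guanylate cyclase, had 3 counts over the skin libraries and 1485 over the spleen libraries, a ratio of 212 in favour of spleen with a 95% counting interval of 72.3 to 1030. Sorcs2, a sorting receptor of the VPS10 family, was at 0, 0.452 and 1.91 CPM in skin and 21.6, 27.6 and 41.5 CPM in spleen. Each of the 3 genes was close to 0 in all skin libraries and clearly present in all spleen libraries. Gpr83, a receptor found on resting Tregs, fell by 6.88 on the log2 scale, Treml2, of the TREM receptor family, by 5.63, St8sia1, which makes the ganglioside GD3, by 5.28, and Apol7e, an apolipoprotein L, by 5.46. Art2b and Tgtp1 also stood here, but each has a near-identical copy in the genome with which reads may have been shared. Jchain, a plasma cell gene that joins immunoglobulin, was at 0, 0.339 and 0.128 CPM in skin and 4.3, 14.9 and 31.1 CPM in spleen (adjusted p = 0.03). Its call was lost in 7 alternatives, with an adjusted p of 0.064 to 0.11 without any single skin library, spleen 2 or spleen 3 and of up to 0.43 in all, and it moved with the B cell genes, whose part in it was not tested.

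**Figure D1:**
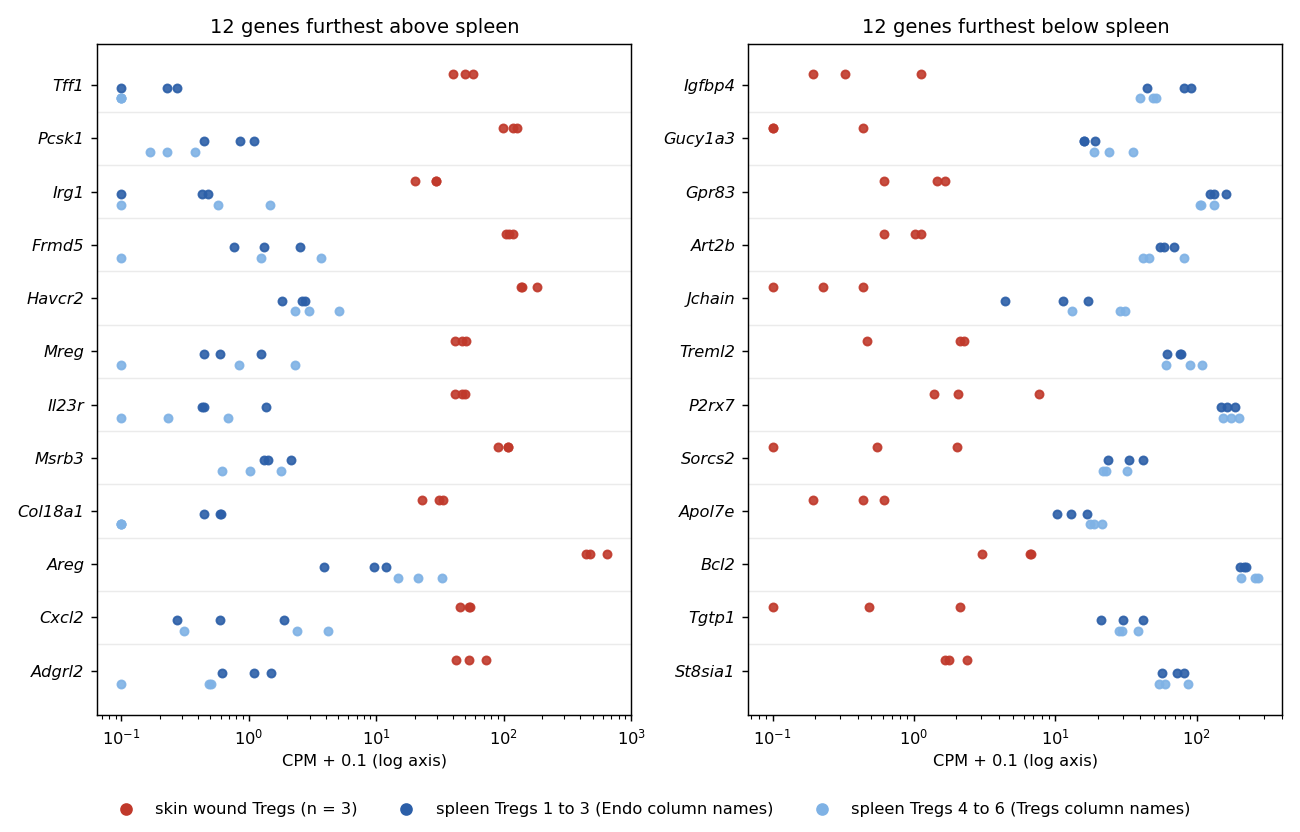
Levels of the 12 genes furthest above and the 12 furthest below spleen by fitted fold change, in CPM + 0.1 on a log axis, 1 point per library; red is skin, dark blue spleen 1 to 3 and light blue spleen 4 to 6. Skin and spleen points do not overlap for any of the 24 genes, as the rule that chose them required.

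Sets of genes for Treg functions were next counted against the whole table, where the median log2 fold change was -0.065. Of 24 lists, the mitosis list had the greatest share of members higher in skin (25 of 25), followed by effector transcription factors (23 of 25) and costimulation, TNF receptor and NF-kB genes (18 of 20). The naive T cell list had the greatest share lower (16 of 20), followed by lymphoid recirculation (9 of 14) and interferon response genes (17 of 28). In T cell receptor signalling, 2 of 19 were higher, 4 lower and 13 did not pass, against 15% higher and 12.8% lower over the whole table.

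**Figure D2:**
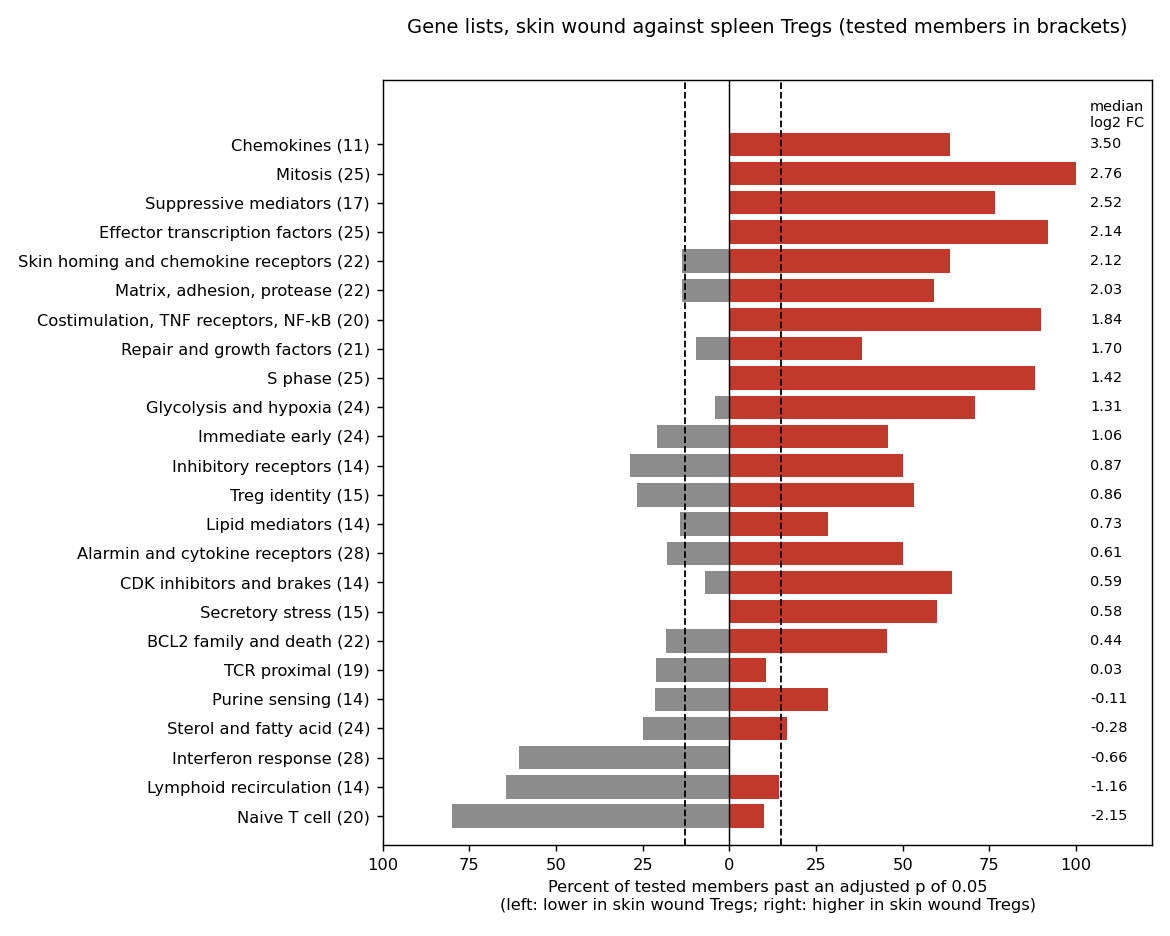
Percent of the tested members of each list that passed an adjusted p of 0.05, with members higher in skin in red to the right and members lower in skin in grey to the left; numbers at the right are median log2 fold changes. Dashed lines mark the shares over all genes tested, 15% higher and 12.8% lower; the mitosis list has the longest bar to the right and the naive T cell list the longest to the left.

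Treg identity genes did not move as one. Of 15 tested, 8 were higher in skin, 4 lower and 3 did not pass, with a median log2 fold change of 0.86. Il2ra, the high-affinity receptor chain for interleukin 2, was at 1523, 1876 and 1727 CPM in skin and 576, 599.6 and 632 CPM in spleen (2.77-fold, adjusted p = 2.7e-07). Ctla4, which takes costimulatory ligands off antigen-presenting cells, was at 2649, 2099 and 2053 CPM in skin and 220.2, 344 and 408 CPM in spleen (8.47-fold, log2 3.08 ± 0.17 SE, adjusted p = 4.5e-12). All skin libraries exceeded all spleen libraries for both genes. Tnfrsf18, which encodes the receptor GITR, was 3.52-fold higher, Itgb8, the integrin chain with which Tregs activate TGF-beta, 4.2-fold, and Ikzf2, the factor Helios, 1.81-fold higher. Izumo1r, the folate receptor 4 of resting Tregs, was at 40.7, 50.4 and 32.3 CPM in skin, against 253, 314 and 349.9 CPM in spleen, and was 8.08-fold lower (adjusted p = 2.5e-12). Nrp1, a co-receptor for semaphorins, was 2.11-fold lower, at 158 to 175 CPM in skin and 328 to 569 CPM in spleen. Lrrc32, which displays latent TGF-beta on the Treg surface, passed narrowly at log2 -0.40 (adjusted p = 0.041) and lost its call in 12 alternatives, among them the removal of any 1 library but spleen 3 (adjusted p = 0.052 to 0.23), with an adjusted p of up to 0.66. Ikzf4, Nt5e and Entpd1 did not pass.

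Inhibitory receptors were likewise divided, in a list that also holds the ligand genes Cd274 and Pdcd1lg2. Of 14 tested, 7 were higher, 4 lower and 3 did not pass. Klrg1, a marker of differentiated T cells that binds cadherins, was at 627, 511 and 494 CPM in skin and 25.9, 40.1 and 62.1 CPM in spleen (9.6-fold, adjusted p = 4e-10). Pdcd1, the receptor PD-1, was 4.69-fold higher, Tigit, which binds CD155, 4.65-fold, Cd200r1, a receptor that damps myeloid and T cells, 5.46-fold, and Cd274, the ligand of PD-1, 2.42-fold. Cd96, which shares its ligand with Tigit, went the other way. It was at 34.5, 41.8 and 46.2 CPM in skin and 154, 187 and 210.4 CPM in spleen, 5.02-fold lower (adjusted p = 4.4e-11). Cd160, a receptor for HVEM, was at 0, 0.452 and 0.51 CPM in skin and 4.15, 6.36 and 9.91 CPM in spleen, and Btla, which binds the same ligand, was 1.92-fold lower. The groups did not overlap for any of these 3 genes. Cd101 passed (adjusted p = 0.048) but lost its call in 11 alternatives, among them the removal of any 1 library but spleen 3 (adjusted p = 0.055 to 0.2), and Lag3 did not pass (adjusted p = 0.52).

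Costimulatory and TNF receptor genes were higher together, with 18 of 20 past the test and a median log2 fold change of 1.84. Icos (chr1:60977927-61000320, plus strand), a relative of CD28 that sustains effector Tregs, was at 2351, 2308 and 2559 CPM in the skin libraries, against 183, 193 and 267 CPM in spleen. It was 12.5-fold higher, with a log2 fold change of 3.64 ± 0.17 (SE; adjusted p = 3.8e-13). Tnfrsf9, the receptor 4-1BB, was at 1375, 1492 and 1163 CPM in skin and 85.8, 128 and 131 CPM in spleen (10.2-fold). For both genes, each skin library was several times above the highest spleen library. Tnfrsf4, the receptor OX40, was 6.16-fold higher, Tnfrsf8, the receptor CD30, 5.37-fold, Tnfrsf1b, the second TNF receptor, 3.8-fold, and the adhesion ligand Icam1 4.83-fold. The NF-kB subunit genes rose less, Rel by 3.45-fold, Nfkb2 by 2.88-fold, Relb by 1.93-fold and Nfkb1 by 1.33-fold. Nfkb1 did not pass against either spleen set taken alone (adjusted p = 0.066 for spleen 1 to 3 and 0.6 for spleen 4 to 6). Tnfaip3, which switches NF-kB off, was at 2112, 2198 and 2246 CPM in skin, against 596, 171 and 326 CPM in spleen 1 to 3 and 1375, 1410 and 984 CPM in spleen 4 to 6. Its level differed between the spleen sets, and its call was lost in at least 1 alternative. Cd27 and Tnfrsf25 did not pass.

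Genes for suppression were mostly higher, with 13 of 17 past the test, none lower, and a median log2 fold change of 2.52. Il10, the anti-inflammatory cytokine, was at 109.5, 57.1 and 76.9 CPM in skin and 2.6, 10.8 and 20.8 CPM in spleen (log2 3.89 ± 0.41 SE, adjusted p = 6.1e-06). Il1r2, a decoy receptor that captures interleukin 1, was at 228, 225 and 179.7 CPM in skin and 3.15, 10.7 and 30.03 CPM in spleen (log2 4.39 ± 0.67 SE, adjusted p = 0.00052). Il1rn, which blocks the interleukin 1 receptor, was at 22.1, 13.6 and 16.2 CPM in skin and 1.14, 1.93 and 4.64 CPM in spleen (8.8-fold). The groups did not overlap for any of the 3, and skin 1 was the highest library for Il10 and Il1rn. Gzma, a granule protease, was at 23.6, 27.8 and 19.01 CPM in skin and 0.173, 0.73 and 1.39 CPM in spleen (adjusted p = 0.00021), and Gzmb had a log2 fold change of 5.74. Of 9 markers of CD8 T and NK cells, 1 (Klrk1) was higher, and the list summed to 51.2 to 59.8 CPM in skin and 38.5 to 56.3 CPM in spleen. Their part in the granzyme values was not tested. Lgals1 and Lgals3, galectins that bind surface sugars, were 6.9-fold and 10.2-fold higher, and Fgl2, a soluble suppressor, 5.75-fold. Tgfb1 was 1.57-fold higher, Itgav, the integrin chain that pairs with Itgb8, 5.24-fold, and Ebi3, a subunit of interleukins 27 and 35, 3.94-fold. Prf1, Pdcd1lg2, Nt5e and Entpd1 did not pass.

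Of 21 tested genes for repair and growth factors, 8 were higher, 2 lower and 11 did not pass, so the list was split between strong members and genes near 0. Besides Tff1, Areg (chr5:91139599-91148432, plus strand), a ligand of the EGF receptor with which Tregs aid repair, was at 648, 472 and 444 CPM in skin and 3.81, 13.2 and 32.7 CPM in spleen. Penk, the precursor of enkephalin peptides, was at 378, 399 and 255 CPM in skin and 39.6, 54.4 and 64.5 CPM in spleen (6.43-fold, adjusted p = 1.1e-09). Jag1, a Notch ligand, was at 75.5, 85.7 and 81.2 CPM in skin and 1.9, 2.32 and 4.46 CPM in spleen (35.2-fold, adjusted p = 2.3e-11). All skin libraries were above all spleen libraries for the 3 genes. Pdgfb, a growth factor for fibroblasts and pericytes, was at 22.8, 13.9 and 16.2 CPM in skin and 0.497, 0.83 and 1.56 CPM in spleen (17.7-fold), and Tgfa, another ligand of the EGF receptor, at 1.75 to 5.19 and 0 to 0.268 CPM. Il17a, a cytokine of type 17 immunity, had 365 counts over the skin libraries and 0 over the spleen libraries, at least 284-fold higher in skin with a floor of 3 counts over the spleen libraries. Il5 had 38 counts in skin and 0 in spleen, at least 29.6-fold higher, and lost its call without skin 1, spleen 2 or spleen 3 (adjusted p = 0.05 to 0.054). Fgf2, a growth factor for fibroblasts and vessels, was at 0, 0.226 and 0.383 CPM in skin and 3.48, 6.5 and 11.1 CPM in spleen (adjusted p = 0.00012), and Hgf was 5.43-fold lower. The call of Hgf was lost without skin 1 or skin 3 (adjusted p = 0.062 to 0.065), and without either of these 1 gene of the list was lower. Vegfa, Hbegf, Lif, Osm and Bmp7 were among those that did not pass.

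Il17a and Il23r are also made by gamma-delta T cells of skin. None of the 4 tested markers of that lineage passed, and the whole list summed to 13.8 to 17.6 CPM in skin and 9.98 to 12.7 CPM in spleen. Trdc, the constant region of the delta chain, was at 7.94 to 9.31 CPM in skin and 4.07 to 6.71 CPM in spleen. The other 4 measured members were filtered for low counts and were higher in skin by their counts. Trdv4, a variable segment of the delta chain, had 23 counts in skin and 1 in spleen, a ratio of 53.8 with a 95% counting interval of 8.73 to 2220. Sox13, a factor of gamma-delta cells that make interleukin 17, had 18 counts in skin and 0 in spleen, at least 14-fold higher with the floor of 3 counts over the spleen libraries. Tcrg-V6 had 12 and 2 counts (ratio 14, interval 3.12 to 129) and Tcrg-V5 6 and 2 counts (ratio 7.01, interval 1.25 to 71.1). The part of such cells in the Il17a counts was not tested.

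The list of alarmin and cytokine receptors also holds the growth factor gene Csf1. Of its 28 members, 14 were higher, 5 lower, Csf1 among them, and 9 did not pass. Il1rl1, the receptor of interleukin 33, was at 1058, 1161 and 1086 CPM in skin and 45.5, 48.3 and 82.1 CPM in spleen (17.7-fold, log2 4.14 ± 0.19 SE, adjusted p = 3.5e-13). Il18rap, the accessory chain of the interleukin 18 receptor, was at 152, 152 and 148 CPM in skin and 13.4, 18.1 and 29.1 CPM in spleen (7.31-fold). Both were higher in every skin library than in any spleen library, and the other interleukin 18 chain, Il18r1, was 2.92-fold higher. Ifngr1, a chain of the interferon gamma receptor, was 4.29-fold higher, Il7r, the receptor of interleukin 7, 3.96-fold, Crlf2, the receptor of the epithelial alarmin TSLP, 2.6-fold, and Il2rg, the chain shared by several interleukin receptors, 1.5-fold. Tgfbr3, a co-receptor of TGF-beta, was at 0.554, 1.13 and 0.766 CPM in skin and 14.8, 19.6 and 27.6 CPM in spleen, 27.7-fold lower (adjusted p = 5.2e-06). Il6ra, the interleukin 6 receptor, was 2.49-fold lower and Csf1, the macrophage growth factor, 2.79-fold lower. Tgfbr1, Tgfbr2, Il4ra and Il2rb did not pass, and without skin 2 or spleen 2, 3 genes of the list were lower.

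Homing receptors moved in both directions. Of 22 tested genes of the homing and chemokine receptor list, 14 were higher, 3 lower and 5 did not pass. Ccr8, a chemokine receptor of skin T cells, was at 303, 318 and 301 CPM in skin and 25.2, 28.1 and 29.1 CPM in spleen (11.1-fold, log2 3.48 ± 0.20 SE, adjusted p = 7.6e-12). Gcnt1 (chr19:17326141-17372844, minus strand), the enzyme that branches O-glycans to build selectin ligands, was at 284, 257 and 263 CPM in skin and 5.69, 9.73 and 11.9 CPM in spleen (25.2-fold, adjusted p = 2.8e-11). Skin and spleen were well apart in both. Fut7, the fucosyltransferase that completes selectin ligands, was at 15.1 to 26.8 CPM in skin and 1.36 to 6.46 CPM in spleen (3.71-fold), and Selplg, their main protein carrier, was 1.6-fold higher. Itgae, the integrin chain that binds E-cadherin of epithelium, was at 783, 611 and 524 CPM in skin and 46.9, 52.2 and 84.3 CPM in spleen (10.1-fold). The receptors of inflammatory chemokines were higher too, Ccr1 by 51.8-fold, Ccr2 by 21.2-fold, Cxcr6 by 14.6-fold and Ccr3 by 14.5-fold. Ccr4, a skin-homing receptor, was 2.19-fold higher and Ccr6 3.61-fold. Ccr10, the receptor of a keratinocyte chemokine, was at 14.2, 9.94 and 10.7 CPM in skin and 0.984, 2.18 and 5.79 CPM in spleen. It did not pass (adjusted p = 0.098), although the groups did not overlap. Against either spleen set taken alone it passed (adjusted p = 0.019 for spleen 1 to 3 and 4e-04 for spleen 4 to 6). Spleen 4 to 6 also differ from skin in naming style.

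Cxcr5, which leads cells into B cell follicles, was at 0.646, 3.05 and 2.94 CPM in skin and 38.4, 69.00 and 92.7 CPM in spleen, 31.4-fold lower (adjusted p = 1.6e-05). Ccr9, the gut-homing receptor, was 8.71-fold lower, and Cxcr3, the receptor of interferon-induced chemokines, 2.41-fold lower at 26.9 to 35.7 CPM in skin and 37.1 to 80.5 CPM in spleen. Among the lymphoid recirculation genes, 9 of 14 tested were lower and 2 higher, with a median log2 fold change of -1.16. Itga4 (chr2:79255426-79333123, plus strand), the alpha 4 integrin chain used to enter gut and inflamed vessels, was at 104, 119 and 136 CPM in skin and 659, 928 and 1313 CPM in spleen. It was 6.52-fold lower (log2 -2.71 ± 0.18 SE, adjusted p = 1.2e-10), with no skin library near any spleen library. Klf2, which drives the exit and homing genes, was 3.11-fold lower and its relative Klf3 6.93-fold. S1pr1, the receptor that lets T cells leave tissue, was only 1.66-fold lower, at 254 to 281 CPM in skin and 284 to 554 CPM in spleen. Ccr7, the lymph node homing receptor, was 3.78-fold lower, and lost its call without spleen 1 and 2 (adjusted p = 0.36). Gpr183, a receptor for oxysterols, was 3.15-fold higher. Cd69, which blocks tissue exit, was 2.45-fold higher by the fit, but its 259, 286 and 166 CPM in spleen 4 to 6 reached the 259.5 to 292 CPM of skin.

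Genes of resting, naive-like T cells were lower, with 16 of 20 tested lower, 2 higher and a median log2 fold change of -2.15. Tcf7, the factor TCF-1 that keeps T cells in a resting or stem-like state, was at 15.4, 17.4 and 14.4 CPM in skin and 337, 430.5 and 488 CPM in spleen (24.7-fold lower, log2 -4.63 ± 0.19 SE, adjusted p = 2.4e-13). Bach2, which represses effector genes, was at 2.49, 8.24 and 4.08 CPM in skin and 125, 143 and 164 CPM in spleen (28.9-fold lower). Both were lower in all skin libraries than in any spleen library by a wide margin. Actn1, an actin crosslinker, was 15.7-fold lower, Id3, which holds E proteins in check, 13.4-fold, and Nsg2, a membrane protein of endosomes, 12.7-fold. The related factor Lef1 fell less, 3.24-fold, and Foxo1 and Satb1 less still, 1.6-fold and 1.54-fold. Ets1 did not pass, at 1778 to 1817 CPM in skin and 1361 to 1935 CPM in spleen, and Il7r and Myb were higher by the fit. Myb, a factor of progenitor cells, was at 41.4, 61.3 and 53.97 CPM in skin, against 17.6, 16.1 and 27.1 CPM in spleen 1 to 3 and 38.4, 48.4 and 44.2 CPM in spleen 4 to 6, and its call was lost in 3 alternatives (adjusted p of up to 0.31). Without spleen 1 and 2, 12 of the 20 were lower.

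Transcription factors of effector T cells went the opposite way, with 23 of 25 higher, none lower and a median log2 fold change of 2.14. Nfil3, a factor that acts in many immune lineages, was at 302, 298 and 274 CPM in skin and 11.96, 22.4 and 47.98 CPM in spleen (21.3-fold, adjusted p = 3.5e-13). Id2, a relative of Id3, was at 514, 696 and 595 CPM in skin and 31.6, 46.9 and 59.2 CPM in spleen (16.3-fold, adjusted p = 3.7e-13). No spleen library came near a skin library for either gene, and Id2 and Id3 thus moved in opposite directions. Rora, a nuclear receptor active in skin Tregs, was at 924, 1114 and 1166 CPM in skin and 97.8, 113 and 154 CPM in spleen (9.33-fold, adjusted p = 3.2e-12). Prdm1, the factor Blimp-1 of effector Tregs, was 8.45-fold higher, Ahr, the sensor of aryl compounds, 6.6-fold, Batf, needed for tissue Tregs, 4.4-fold, and Irf4, its partner, 3.52-fold. Bhlhe40, a repressor in activated T cells, was at 463, 475 and 434 CPM in skin, against 66.7, 36.9 and 43.4 CPM in spleen 1 to 3 and 115, 185 and 145 CPM in spleen 4 to 6, with log2 fold changes of 3.20 and 1.61 against the 2 sets. Gata3, the type 2 factor that skin Tregs also use, was at 378 to 495 CPM in skin and 143 to 211 CPM in spleen (3.05-fold). Pparg, a factor of fat-tissue Tregs, was 6.02-fold higher but low, at 7.02 to 8.36 CPM in skin and 0.632 to 2.33 CPM in spleen. Tbx21, the type 1 factor, did not pass (adjusted p = 0.97), nor did Tox2.

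Of 24 immediate early genes, which answer within minutes to receptor signals or to cell handling, 11 were higher, 5 lower and 8 did not pass. Nr4a1, a nuclear receptor induced by T cell receptor signals, was at 818, 719 and 761 CPM in skin, against 148, 82.7 and 92.6 CPM in spleen 1 to 3 and 289, 234 and 185 CPM in spleen 4 to 6 (7.02-fold). Fosl2, an AP-1 subunit, was at 864, 631 and 671 CPM in skin, against 43.2, 13.7 and 29.1 CPM in spleen 1 to 3 and 79.8, 93.4 and 67.7 CPM in spleen 4 to 6 (log2 4.63 ± 0.32 SE). For both genes, skin was above both spleen sets, and spleen 4 to 6 lay above spleen 1 to 3. Egr2, which restrains activated T cells, was instead 6.11-fold lower, at 4.34, 2.6 and 5.74 CPM in skin and 20.97, 24.05 and 41.6 CPM in spleen, and Egr3 was 3.02-fold lower. The heat shock gene Hspa1a, which stress induces, was at 47.5, 116 and 86.9 CPM in skin and spread over 0.0703 to 177 CPM in spleen, and did not pass. Dusp2, a phosphatase lower in skin by the fit, turned to a log2 fold change of 0.18 (adjusted p = 0.73) without spleen 1 and 2. Without skin 2 or skin 3, 2 genes of the list were lower, and without spleen 1 or spleen 2, 3 were. The median level over the list was 109, 123 and 127 CPM in skin and 93.5, 58 and 89.4 CPM in spleen 1 to 3. In spleen 4 to 6 it was 142, 128 and 101 CPM, which overlaps skin.

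Cell cycle genes were higher in skin throughout the list of mitosis, 25 of 25, with a median log2 fold change of 2.76, and in 22 of 25 S phase genes, with a median of 1.42. Ccna2, the cyclin of S and G2 phase, was at 156, 125 and 146 CPM in skin and 10.3, 21.6 and 32.4 CPM in spleen (9.45-fold, adjusted p = 9.4e-08). Ccnb2, a mitotic cyclin, was at 59.1, 56.2 and 64.2 CPM in skin, against 8.28, 4.85 and 11.8 CPM in spleen 1 to 3 and 8.57, 21.5 and 24.7 CPM in spleen 4 to 6. Mki67 (chr7:135689784-135716361, minus strand), the proliferation marker, was at 462, 586 and 576 CPM in skin, against 27.3, 23.8 and 207 CPM in spleen 1 to 3 and 195, 281 and 359.9 CPM in spleen 4 to 6 (log2 2.61 ± 0.70 SE, adjusted p = 0.017). Skin lay above all spleen libraries for each gene, and spleen 1 and 2, the libraries richest in ribosomal RNA, were the lowest for Mki67. The median level over the mitosis genes was 51.5, 45.8 and 51.2 CPM in skin, against 4.14, 4.85 and 10.8 CPM in spleen 1 to 3 and 10.3, 16.5 and 19.3 CPM in spleen 4 to 6. Without spleen 1 and 2, 23 of 25 mitosis genes and 14 of 25 S phase genes were higher. The part of RNA quality in these values was not tested. Among the S phase genes, Rrm1, a subunit of the enzyme that makes deoxynucleotides, was 3.17-fold higher, Uhrf1, which keeps DNA methylation through replication, 4.88-fold, and the helicase subunit Mcm6 2.08-fold.

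**Figure D3:**
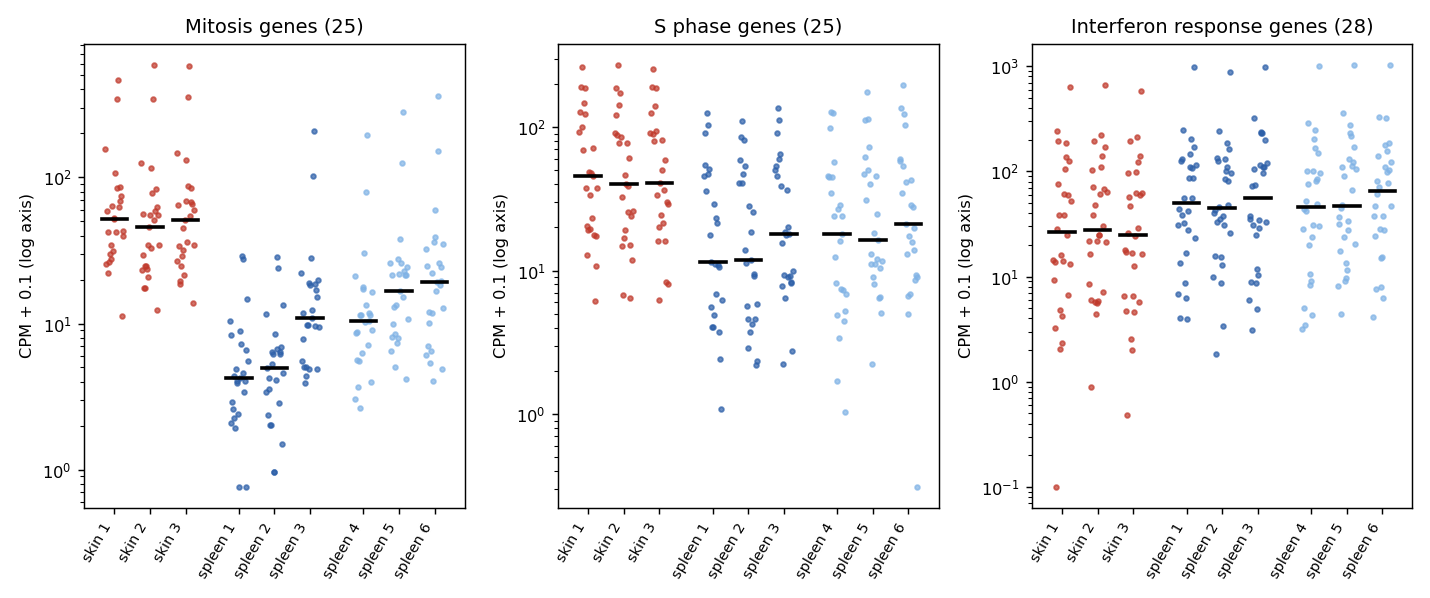
Levels of the mitosis, S phase and interferon response genes in each skin and spleen library, in CPM + 0.1 on a log axis; each point is a gene and each bar the median of the list in that library. Medians of the mitosis genes lie at 45.8 to 51.5 CPM in skin and 4.14 to 19.3 CPM in spleen, while those of interferon genes are lower in skin, at 25 to 27.7 CPM against 44.7 to 65.6 CPM in spleen.

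Promoters of genes that moved together are shown for their known control elements, from RefSeq (GRCm38.p6), as 250 bases before and 50 after the start of the gene, 5′ to 3′ on the gene's strand. Capitals in Ccnb2 (chr9:70421505-70421804, minus strand) and Cdk1 (chr10:69352863-69353162, minus strand), the kinase that drives mitosis, mark CCAAT or its reverse complement ATTGG, and the CHR motif TTTGAA. Capitals in Mcm6 (chr1:128359656-128359955, minus strand) mark the E2F motif TTTGGCGC and ATTGG.
Ccnb2: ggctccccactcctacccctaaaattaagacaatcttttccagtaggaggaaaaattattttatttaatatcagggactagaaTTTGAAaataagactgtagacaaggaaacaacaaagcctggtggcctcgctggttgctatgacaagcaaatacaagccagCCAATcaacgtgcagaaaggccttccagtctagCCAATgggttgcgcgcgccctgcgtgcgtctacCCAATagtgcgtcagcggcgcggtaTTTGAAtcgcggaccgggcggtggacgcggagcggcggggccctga
Cdk1: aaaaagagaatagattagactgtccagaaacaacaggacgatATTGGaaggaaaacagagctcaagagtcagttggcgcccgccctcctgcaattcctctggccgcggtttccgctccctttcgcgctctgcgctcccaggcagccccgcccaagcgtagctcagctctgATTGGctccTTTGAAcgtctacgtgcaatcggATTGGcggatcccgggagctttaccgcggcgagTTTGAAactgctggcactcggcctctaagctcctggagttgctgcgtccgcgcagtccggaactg
Mcm6: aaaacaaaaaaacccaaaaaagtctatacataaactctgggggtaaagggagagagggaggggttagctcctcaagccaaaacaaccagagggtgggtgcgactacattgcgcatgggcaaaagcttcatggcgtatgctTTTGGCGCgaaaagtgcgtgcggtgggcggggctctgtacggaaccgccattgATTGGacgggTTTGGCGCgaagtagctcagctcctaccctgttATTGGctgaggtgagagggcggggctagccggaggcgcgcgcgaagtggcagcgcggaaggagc
The Ccnb2 window held CCAAT from positions -87, -54 and -21, and CHR from positions -167 and 5, where -1 is the last base before the start and 1 the first base after it. Over both strands, CCAAT stood in 18 of the 21 mitosis genes with a promoter in the table (85.7%) and in 41.1% of all 27025 genes, and TTTGAA in 15 of 21 (71.4%) and 20.2% of all. The E2F motif, searched as TTTCCCGC or TTTGGCGC, stood in 7 of 20 S phase genes (35%), in 0 of 21 mitosis genes and in 1.8% of all genes. These are matches of letters, not measured binding.

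Inhibitors of the cell cycle were also higher, in 9 of 14 tested, with 1 lower. Cdkn1a (chr17:29090976-29100727, plus strand), the CDK inhibitor p21 induced by p53 and other stress signals, was at 88.8, 55.5 and 76.2 CPM in skin and 0.694, 2.43 and 4.58 CPM in spleen (45.6-fold, log2 5.51 ± 0.34 SE, adjusted p = 2.7e-11). Cdkn2a, which encodes p16 and ARF, was at 7.94, 4.18 and 3.7 CPM in skin and 0, 0.217 and 0.492 CPM in spleen (adjusted p = 0.00011), and its neighbour Cdkn2b at 7.76, 4.74 and 4.21 and 0, 0.212 and 0.506 CPM. Every skin library was above every spleen library for the 3 genes, though Cdkn2b lost its call in at least 1 alternative. Cdkn2c was 3.79-fold higher, Rbl2, a pocket protein that holds cells at rest, 2.37-fold, and Cdkn1b, which also restrains the cycle, 1.29-fold. Cdkn1b did not pass against spleen 4 to 6 alone (adjusted p = 0.38). Without spleen 1 and 2, 6 of 14 were higher, and without skin 2, 5 were; the single lower member lost its call without skin 2, skin 3, spleen 1 or spleen 2.

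Survival genes split around Bcl2. Of 22 tested members of the BCL2 and cell death list, 10 were higher, 4 lower and 8 did not pass. Bcl2 (chr1:106538178-106714274, minus strand), the founding inhibitor of mitochondrial cell death, was at 2.96, 6.55 and 6.63 CPM in skin and 201, 219.7 and 272 CPM in spleen (40.99-fold lower, adjusted p = 3.5e-13). Its relative Bcl2l1, which encodes BCL-XL, was at 179.9, 168 and 156 CPM in skin and 32.2, 36.8 and 47.9 CPM in spleen (4.2-fold higher, adjusted p = 8.9e-10). Neither gene's groups overlapped, and the 2 anti-death genes thus stood on opposite sides. Bcl2a1b and Bcl2a1d were 2.68-fold and 4.38-fold higher, near-identical copies between which reads may have been split. On the death side, Tnfrsf10b, the TRAIL receptor, was at 63.1, 77.1 and 70.3 CPM in skin and 6.42, 8.65 and 12.2 CPM in spleen (8.69-fold), Pmaip1, the BH3-only protein NOXA, was 6.65-fold higher and Fas 2-fold. Mcl1, another inhibitor of death, was 1.36-fold lower and Fasl 3.46-fold, but the call of Mcl1 was lost without skin 2, skin 3 or spleen 2 (adjusted p = 0.053 to 0.084) and that of Fasl without skin 1 or spleen 1 (adjusted p = 0.053 to 0.058). Bcl2l11, Bid and Xiap did not pass. Without spleen 1 and 2, 7 were higher and 1 lower.

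Sensors of extracellular purines, which Tregs use to read ATP and adenosine from damaged cells, counted 4 higher, 3 lower and 7 not passed of 14. P2rx7, an ATP-gated channel that can kill T cells, was at 1.94, 7.57 and 1.28 CPM in skin and 148, 169 and 199.5 CPM in spleen (46.9-fold lower, adjusted p = 1.4e-06). Adora2a, the adenosine receptor of T cells, was at 136, 122 and 136 CPM in skin and 28.5, 35.3 and 50.1 CPM in spleen (3.71-fold higher). The groups were apart in both, in opposite directions. P2ry10, a receptor for lysophospholipids, was 3.51-fold higher, Dpp4, which binds adenosine deaminase, 4.45-fold lower, and the ectoenzymes Nt5e and Entpd1, which turn ATP into adenosine, did not pass.

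Glycolysis and hypoxia genes were higher in 17 of 24, with 1 lower and a median log2 fold change of 1.31. Slc16a3, which exports lactate, was at 108, 106 and 96.5 CPM in skin and 6.03, 9.4 and 11.5 CPM in spleen (12.4-fold, adjusted p = 1.9e-10). Egln3, an oxygen sensor induced by hypoxia, was at 103, 95.8 and 86 CPM in skin and 4.81, 6.48 and 8.37 CPM in spleen (16.3-fold, adjusted p = 2.3e-11). Skin was well above spleen in all libraries. Enzymes of the pathway followed, with Tpi1 5.6-fold, Hk2 5.25-fold, Aldoa 3.97-fold, Pkm 3.52-fold and Ldha 2.82-fold higher, and the glucose transporter Slc2a1 2.51-fold. Pdk1, a kinase that inhibits pyruvate dehydrogenase, was the member that fell, 2.97-fold. The median level of the list was 106, 98.7 and 93.7 CPM in skin and 24.8 to 36.1 CPM in spleen. Of 24 sterol and fatty acid genes 4 were higher, 6 lower and 14 did not pass, near the shares of all genes for those higher. Dgat1 and Dgat2, the enzymes that complete triglycerides, were at 390.1, 300.5 and 272 and 93.2, 85.1 and 102 CPM in skin, against 14.7 to 22.6 and 0.141 to 6.93 CPM in spleen (16.97-fold and 17.8-fold). Without spleen 1 and 2 the list had 5 higher and 1 lower, and without spleen 2 alone 3 were lower.

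Interferon response genes were lower in 17 of 28 and higher in none, with a median log2 fold change of -0.66. Iigp1, a GTPase that attacks vacuoles of parasites, was at 6.65, 7.11 and 5.61 CPM in skin and 47.5, 61.2 and 97.3 CPM in spleen (10.5-fold lower, adjusted p = 4.6e-07). Usp18, which damps interferon signals, was at 4.71, 5.65 and 2.42 CPM in skin and 19.9, 26.7 and 35.2 CPM in spleen (7.26-fold lower, adjusted p = 8.9e-07). Irgm1, another such GTPase, was 3.95-fold lower and Ifit2, an antiviral RNA-binding protein, 2.7-fold. None of the skin libraries reached the spleen range for these genes. Isg15, Irf7, Bst2 and Mx1 did not pass. Without spleen 1 and 2, 13 of 28 were lower, and without spleen 3, 1 was higher. The promoter of Ifit3 (chr19:34583279-34583578, plus strand), an antiviral gene at 3.14, 5.87 and 4.59 CPM in skin and 4.96, 14.4 and 24.1 CPM in spleen, is shown for its interferon-response elements, searched as GAAANNGAA on both strands, in capitals as their reverse complement.
Ifit3: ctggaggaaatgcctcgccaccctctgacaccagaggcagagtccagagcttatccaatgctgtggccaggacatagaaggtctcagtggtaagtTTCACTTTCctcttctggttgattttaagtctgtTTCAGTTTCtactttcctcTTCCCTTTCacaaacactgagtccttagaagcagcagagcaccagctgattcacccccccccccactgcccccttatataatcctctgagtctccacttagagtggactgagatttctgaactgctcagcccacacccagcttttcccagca
The 3 matches began at positions -155, -121 and -102. The motif stood in 16 of 22 listed genes with a promoter (72.7%) and in 9.8% of all genes. The 22 were not only genes lower in skin. Isg15, Bst2 and Stat2 held the motif but did not pass, while Ifit2, Oasl2 and Samhd1 were lower without holding it. Ifi206 and Ifi213 held it but had no entry among the measured genes.

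Adhesion and matrix genes had 13 members higher, 3 lower and 6 not passed of 22. Vim, the intermediate filament of motile cells, was at 3700, 3960 and 4674 CPM in skin and 398, 493 and 598 CPM in spleen (8.14-fold, adjusted p = 2.3e-11). Itga3, a laminin-binding integrin chain, was at 112, 106 and 106 CPM in skin and 3.75, 4.89 and 7.34 CPM in spleen (19.02-fold, adjusted p = 5.7e-12). For both, the skin libraries kept close together and above spleen. Cd44, the hyaluronan receptor of activated T cells, was 5.1-fold higher, Lmna, the nuclear lamin, 47.9-fold, and Adam12, a membrane protease, 13.9-fold, while another laminin-binding chain, Itga6, was 3.32-fold lower. Vim and Lmna are also abundant in fibroblasts. Fibroblast markers summed to 122 CPM in skin 3, 13.1 and 13.7 CPM in the other skin libraries and 1.21 to 17.6 CPM in spleen. Lmna was at 617, 437 and 602 CPM in the 3 skin libraries. The part of fibroblasts was not tested.

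Of 11 chemokine genes tested, 7 were higher and none lower, most at low levels, and without spleen 1 and 2 only 2 were. Cxcl3, a neutrophil chemokine like Cxcl2, was at 10.4, 9.82 and 7.78 CPM in skin and 0, 0.115 and 0.703 CPM in spleen (adjusted p = 2.8e-05). Ccl22, a ligand of Ccr4 that dendritic cells make, was at 6.09, 12.7 and 19.1 CPM in skin and 0, 0.083 and 0.387 CPM in spleen (adjusted p = 0.019), and lost its call without spleen 1, 2 or 3 (adjusted p = 0.06 to 0.074). Of 8 dendritic cell markers tested, 4 were higher and none was lower. The list summed to 67.0 to 90.6 CPM in skin and 11.4 to 109 CPM in spleen. Of the members filtered for low counts, the Langerhans cell gene Cd207 was at 0 in skin. Mgl2 had 35 counts over the skin libraries, at 0.462, 1.13 and 2.55 CPM, and 0 counts over the spleen libraries. Much of the spleen sum came from Siglech, a gene of plasmacytoid dendritic cells, at 1.02 to 2.15 CPM in skin and 1.32 to 79.2 CPM in spleen, which did not pass. The called members were Cd209a, at 1.94, 10.3 and 15.2 CPM in the skin libraries and 0 to 4.82 CPM in spleen, Flt3, at 2.96, 11.1 and 7.78 and 0.331 to 6.26 CPM, Epcam, at 30.8, 25.7 and 23.4 and 4.85 to 13.6 CPM, and Zbtb46, at 25.9, 29.9 and 22.6 and 0.804 to 4.58 CPM. Skin 1 was lowest for Ccl22, Cd209a, Flt3 and Mgl2, but highest for Epcam and between the others for Zbtb46. Their part in the chemokine values was not tested. Among lipid mediator genes, 4 of 14 were higher and 2 lower. Ltb4r1, the leukotriene B4 receptor, was at 71, 43.9 and 70.2 CPM in skin and 0, 1.26 and 3.81 CPM in spleen (23.3-fold, adjusted p = 0.00021), and Ptgir, the prostacyclin receptor, was 3.31-fold higher. The counts of this list were 2 higher without skin 2 or spleen 2, and 1 lower without skin 1 or skin 2. Genes of secretory stress were higher in 9 of 15, by modest folds such as 2 for the stress factor Atf4 and 1.5 for Xbp1.

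In T cell receptor signalling, where 13 of 19 genes did not pass, the members lower in skin were Themis, needed for thymic selection, at 35.3, 37.3 and 56.5 CPM in skin and 107, 119 and 128 CPM in spleen (2.67-fold, adjusted p = 3.2e-07), and the kinase gene Prkcq (2.32-fold). Cd3e and Lck were lower by 1.54-fold and 1.31-fold. The call of Cd3e was lost without skin 3, spleen 1 or spleen 2 (adjusted p = 0.06 to 0.09), and that of Lck without skin 2, skin 3, spleen 1, 2 or 5 (adjusted p = 0.051 to 0.21). The members called higher were Trat1, lost without skin 2, skin 3, spleen 2 or spleen 3 (adjusted p = 0.058 to 0.21), and the phosphatase gene Ptpn22, lost without skin 2 (adjusted p = 0.069). The counts fell to 0 higher without skin 2, 1 higher without skin 3 or spleen 2, and 2 lower without skin 3, spleen 1 or spleen 2.

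The 2 spleen sets were then taken one at a time. Of 13020 genes tested against both, 4987 were called against spleen 1 to 3 and 5284 against spleen 4 to 6, with 3559 called in the same direction against both, 8 in opposite directions, 1420 called only against the first and 1717 only against the second set. The 3 skin libraries were shared by both comparisons. Spleen 4 to 6 differ from skin in naming style as well as tissue, so the effects of style and tissue cannot be told apart there. Of 155 named genes tested in both, 144 passed in the same direction. Mki67 had a log2 fold change of 2.62 against spleen 1 to 3 and 0.94 against spleen 4 to 6, and Tnfaip3 had 2.56 and 0.78. Ptpn22 had 0.51 against spleen 1 to 3 and -0.01 (adjusted p = 0.96) against spleen 4 to 6. Areg had 5.93 against spleen 1 to 3 and 4.5 against spleen 4 to 6, Nfil3 4.41 and 2.96, Il10 3.89 and 2.31, and Cdkn1a 5.51 and 4.45. In the resting programme, Tcf7 and Bcl2 moved little between the sets, with -4.63 and -4.91 for Tcf7 and -5.36 and -5.56 for Bcl2. Other members moved more, such as Id3 with -3.74 and -2.98, Ccr7 with -1.92 and -1.21, and Foxp1 with -1.35 and -2.01. Icos had 3.64 and 3.32, and Ctla4 3.08 and 2.51.

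**Figure D4:**
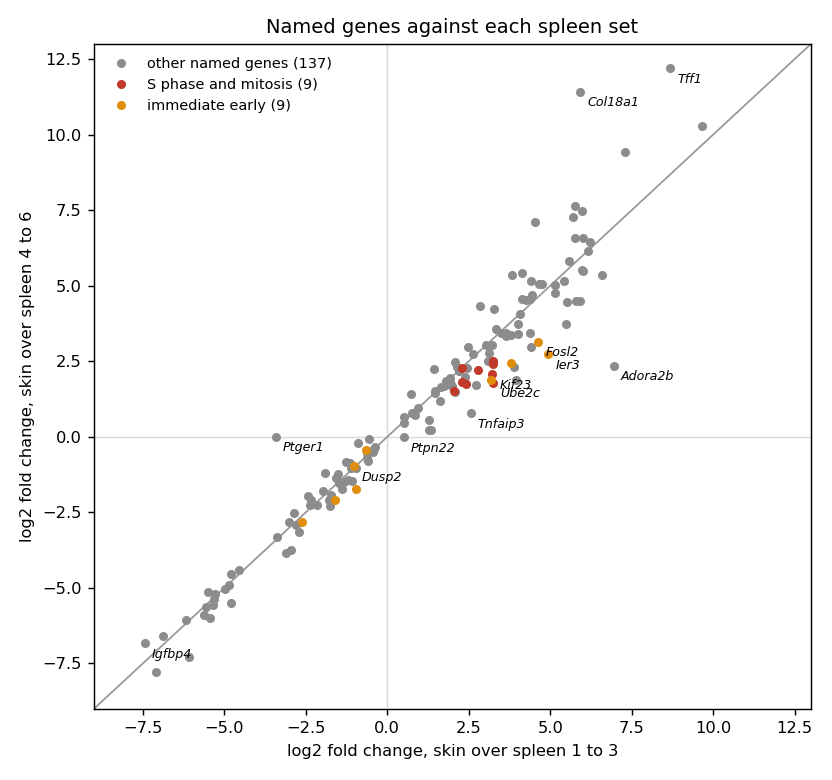
Log2 fold changes of the named genes in skin over spleen 4 to 6 (vertical) and over spleen 1 to 3 (horizontal), 1 point per gene, with the line of equality; S phase and mitosis genes are red and immediate early genes orange. Most points lie near the line, and cell cycle genes and Tnfaip3 lie below it; fitted folds of genes at almost 0 counts in spleen, such as Tff1, depend on the prior count and are shown for place only.

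Far fewer genes passed against Tregs of the other injured tissues. Skin was set against the mean of bone, muscle and heart over all 18 libraries, and 518 of 15926 genes passed (3.25%), 245 higher in skin (1.54%) and 273 lower (1.71%). The naming style entered again, so fold changes are adjusted for it while the CPM levels given beside them are not. Skin shared its style there with heart 1 and spleen 1 to 3 only. Without that term 1053 were higher and 960 lower. Leaving out a skin library left 111 higher and 133 lower without skin 1, 124 and 182 without skin 2, and 129 and 149 without skin 3; without heart 1 they were 233 and 181. This comparison uses the same skin libraries as the one with spleen.

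The genes furthest above the other tissues were Jag1, Maged1, Gcnt1, Nfil3, Cdc42bpb and Sh3bp4. Gcnt1 was at 284, 257 and 263 CPM in skin, against 61.7, 54.1 and 33 CPM in bone, 41.2, 38.3 and 54.4 CPM in muscle and 50.1, 29.8 and 32.6 CPM in heart, a log2 fold change of 2.18 ± 0.25 (SE; adjusted p = 1.2e-05). The skin libraries were several times above each of the 9 others, which did not separate by tissue. Jag1 averaged 80.8 CPM in skin, 25.7 in bone, 17.03 in muscle and 14.7 in heart (log2 2.48 ± 0.30 SE, adjusted p = 2e-05), with skin highest in every library. Nfil3 averaged 291 CPM in skin, 61.3 in bone, 123 in muscle and 129.6 in heart. It was 4.36-fold higher by the fit, which adjusts for naming style as these levels do not. Over the alternatives its log2 fold change ran from 1.55 to 3.09. Cdc42bpb, a kinase of the actin skeleton, was 4.35-fold higher, Sh3bp4, an endocytic adaptor, 3.72-fold, and Maged1, of the MAGE family, 4.85-fold (adjusted p = 0.019), a call lost without skin 1 or skin 3.

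Furthest below were Apol7e, P2rx7, Art2b, Tgtp1, Dtx4 and Gpr34, all already lower in skin than in spleen. The call of Tgtp1 was lost without skin 3 (adjusted p = 0.072). P2rx7 was at 1.94, 7.57 and 1.28 CPM in skin, and the other injured tissues held 16.9, 44.1 and 101 CPM as lowest, median and highest, with bone above heart and heart above muscle without overlap (log2 -3.63 ± 0.48 SE, adjusted p = 8e-04). No skin library reached the lowest of the others. Dtx4, a ubiquitin ligase of the Notch pathway, was 9.73-fold lower and Gpr34, a receptor for lysophosphatidylserine, 8.39-fold.

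**Figure D5:**
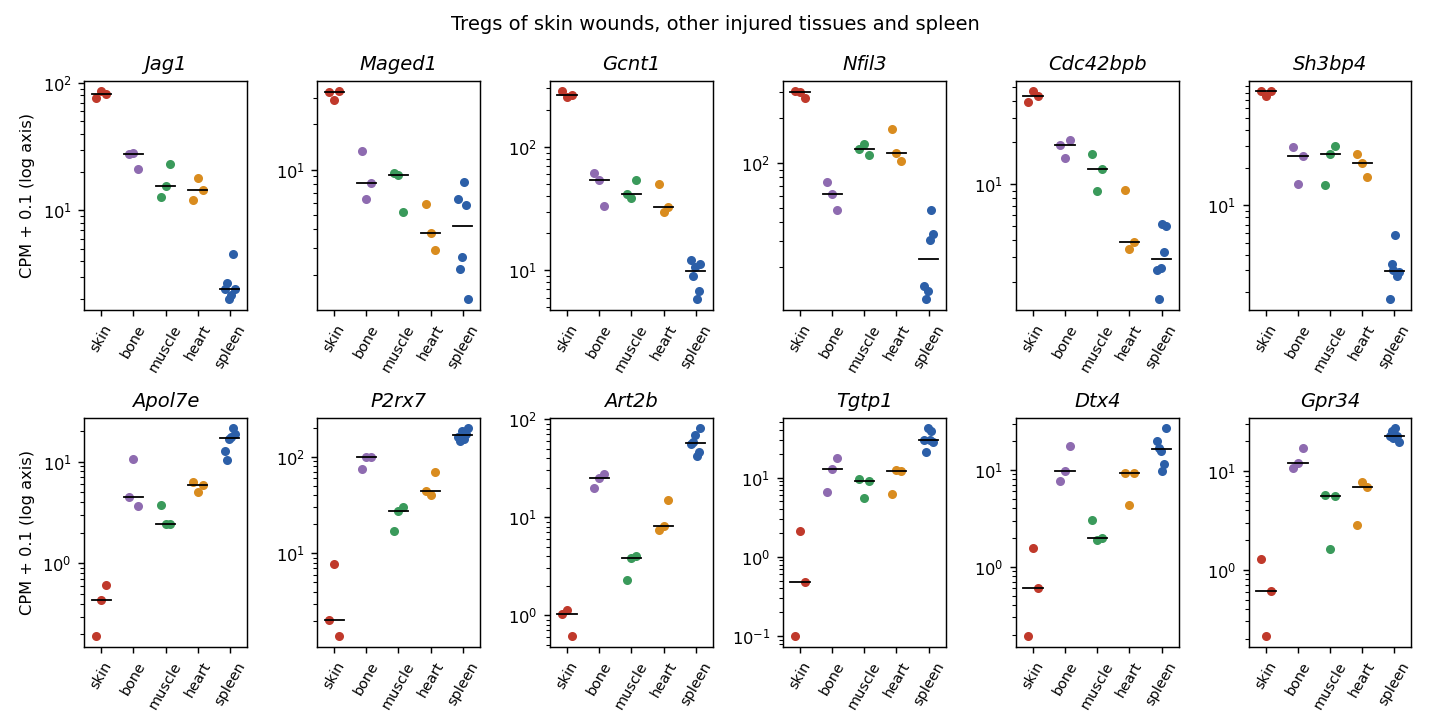
Levels of the 6 genes furthest above and the 6 furthest below the other injured tissues, in CPM + 0.1 on a log axis, 1 point per library and a bar at each group's median, with skin first and spleen last. Skin lies outside the range of bone, muscle and heart in each panel, as the rule that chose the genes required, at 257 to 284 CPM for Gcnt1, against 29.8 to 61.7 CPM in the others.

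By list, the shares were compared with 1.54% higher and 1.71% lower over all genes, and a median log2 fold change of -0.02. Effector transcription factors had 8 of 25 members higher in skin and none lower, and costimulation genes 6 of 20 and none. Batf averaged 125 CPM in skin and 33.8, 55.02 and 60.9 CPM in bone, muscle and heart (3.04-fold, adjusted p = 0.00059). Prdm1 was 2.58-fold higher than in the other tissues, Ahr 2.51-fold, Icos 2.41-fold and Ctla4 2.18-fold, so these genes were higher in skin than in spleen and than in the other injured tissues. Of the homing list, 5 of 22 were higher and 2 lower. Itgae was 2.77-fold higher and Ccr8 2.13-fold, while Cxcr3 was 2.69-fold lower and Cxcr5 6.29-fold.

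Itga4 set skin apart from every other group. It held 104 to 136 CPM in skin, against 650.4, 988 and 1107 CPM as the lowest, median and highest over bone, muscle and heart, a range that overlapped that of spleen (659 to 1313 CPM). Skin was 6.36-fold lower than the other injured tissues (log2 -2.67 ± 0.20 SE, adjusted p = 2.3e-08). Naive T cell genes had 7 of 20 lower and 1 higher, among them Tcf7 (5.58-fold lower), Bach2 (6.24-fold) and Bcl2 (6.98-fold). Nrp1 was 1.88-fold lower and Lrrc32 1.58-fold, while the identity list as a whole had 3 higher and 4 lower of 15.

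Lists of the cell cycle, metabolism and interferon response gave fewer calls against the other tissues, where fewer genes were called in all. Of 25 mitosis genes 3 were higher by this fit and 0 without the naming style, and the median level over the list was 51.5, 45.8 and 51.2 CPM in skin and 19.5 to 67 CPM in the other injured tissues, which overlap. Glycolysis genes had 5 of 24 higher and 12 without the naming style, with medians of 93.7 to 106 CPM in skin and 60.4 to 73.5 CPM in the others. For interferon genes 4 of 28 were lower, among them Iigp1 (3.82-fold) and Irgm1 (2.09-fold), and 18 without the naming style. Of the repair list, Areg, Penk and Jag1 were higher and 18 of 21 did not pass. Of chemokine genes none was higher and 1 of 12 was lower.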

How the data were processed

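Bulk RNA of sorted Tregs was measured in 3 skin and 6 spleen libraries; 6 bone and muscle libraries shared their fit, and 3 heart libraries entered the comparison between tissues. The authors deposited raw read counts, 1 value per gene and library; the submitters' processing notes name STAR, featureCounts, limma and GRCm38, without versions. Annotation release, strandedness and the handling of reads with several matches are not given in these sources, so near-identical copies and overlapping genes are uncertain. The series' columns were matched to samples by name, and 0 columns were left out.

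After filterByExpr (minimum count 10) and TMM scaling, edgeR 4.0.16 (R 4.3.3) was used for robust quasi-likelihood F tests, with group and naming style (Endo or Tregs) in the model and Benjamini-Hochberg adjustment over all genes tested at 0.05. Standard errors of log2 fold changes came from the F statistic. The p-values measure the spread between these libraries, which were pools of mice in the injured tissues. For a group without counts the floor was 3 counts in total; floors and the 95% intervals of count ratios (exact binomial) cover counting error only. Alternatives used DESeq2 1.42.0, limma-voom (limma 3.58.1), other scalings, filters and left-out libraries. The script was tested on simulated data.

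The named genes of the comparison with spleen were the 12 largest and 12 smallest log2 fold changes that passed, had non-overlapping groups and averaged log2 CPM 3 or more, at most 4 members from either end of each list, and fixed Treg genes; between tissues, the 6 highest and 6 lowest. Other list members named were chosen after their values were seen. The samples, lists and rules were chosen with earlier results of these data known. Positions come from GENCODE M21 (GRCm38), in which 494 of 494 genes described matched by identifier. A few genes that the rule would name are not reported here.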

Additional observations from a re-analysis of the deposited data

Results flagged for a closer look

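A single spleen library lay apart from the other 5 in 5 of the 157 genes named against spleen, by a gap of over 0.625 of the whole range of the 6 libraries, and chance flags about 1 in 20 groups. Il1rl1 was at 82.1 CPM in spleen 1 and 45.6 to 51.7 CPM in the others, still far below skin. Jag1 was at 4.46 CPM in spleen 5 and 1.9 to 2.6 CPM in the others, and Adora2b at 0.969 CPM in spleen 5 and 0 to 0.134 CPM in the others. Tnfrsf9 was lowest in spleen 4, at 85.8 CPM against 124 to 131 CPM, and Klf3 in spleen 3, at 291 CPM against 365 to 409 CPM.

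Levels in skin Tregs differed from the mean of Tregs in the other injured tissues by the test of that difference (edgeR, adjusted over 15926 genes) in the 12 genes at its ends. The log2 differences, skin minus the mean of bone, muscle and heart, were 2.48 for Jag1, 2.28 for Maged1, 2.18 for Gcnt1, 2.13 for Nfil3, 2.12 for Cdc42bpb and 1.90 for Sh3bp4. On the lower side they were -3.64 for Apol7e, -3.63 for P2rx7, -3.39 for Art2b, -3.36 for Tgtp1, -3.28 for Dtx4 and -3.07 for Gpr34. All 3 skin libraries lay outside the range of the 9 others in each of these genes, as the rule that chose them required.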

How the results depend on the processing

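Of 157 genes named against spleen, 117 kept their call in all alternatives and 40 lost it in at least 1; of the 12 named between tissues, 10 kept it. The direction turned in Dusp2, at 0.18 without spleen 1 and 2, and in Ptpn22, at -0.01 with Tregs-style spleen only, an alternative added after seeing the data. Counts of genes against spleen stayed within 1.5 times under every alternative but leaving out spleen 1 and 2 with the naming style kept. Spleen 1 and 2 are the libraries with most ribosomal RNA, and 1500 genes were then higher and 1048 lower. That fit leaves spleen 3 as the lone Endo spleen library. In skin and spleen libraries only, without spleen 1 and 2 and without the naming style, 2956 were higher and 2819 lower. This alternative too was added after seeing the data. Without the naming style there were 2699 higher and 2375 lower, of which 3845 were shared with the 4342 reported. Upper-quartile scaling gave 2026 higher and 2468 lower, so that 45.1% of the calls were higher, against 54.1% as reported. The replicate block, in skin and Endo spleen libraries, gave 2753 higher and 2501 lower. Same-numbered libraries correlated at 0.279, -0.234 and 0.252, and differently numbered ones at -0.381 to 0.323. With 3 libraries on each side, these values cannot decide whether the numbers pair them. Leaving out 1 library gave 1953 to 2595 higher and 1372 to 1900 lower. Against the other injured tissues, dropping the naming style gave 1053 higher and 960 lower, DESeq2 460 and 464, no filter 482 and 484; leaving out 1 library gave 111 higher and 133 lower without skin 1, 124 and 182 without skin 2, 129 and 149 without skin 3, and 233 and 181 without heart 1. The cause of these shifts was not tested.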
